A study of Saccharomyces cerevisiae with 6 samples.

Results

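The cytosolic ribosomal protein genes of budding yeast, Saccharomyces cerevisiae, encode the proteins of the large and the small subunit of the ribosome that translates nuclear-encoded mRNA. They were chosen by symbol, as genes named RPL or RPS with a number and an optional A or B, together with the stalk genes RPP0, RPP1A, RPP1B, RPP2A and RPP2B. This gave 127 of the 5449 S. cerevisiae genes on the array, 75 of the large subunit (the 5 stalk genes included) and 52 of the small subunit. The RefSeq gene table holds 137 genes named this way, and the other 10 were not analysed here. Signals were read in 6 samples of strain background W303, a common laboratory strain, all taken in log phase from YPD, a rich medium, at 30 °C. The wild-type group held 3 arrays with no allele beyond the background named in the labels, and the deletion group held 3 arrays of the same background with RPH1 deleted. RPH1 encodes a JmjC histone demethylase with zinc fingers that acts as a transcriptional repressor. The comparison asks which genes change in unstressed growth when it is missing.

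Ribosomal protein genes are among the most heavily transcribed genes of a growing yeast cell. Most are duplicated, the copies being marked A and B, and their proteins differ little or not at all. Their promoters are bound mainly by Rap1, with Fhl1 and Ifh1, and their output follows growth signals from the TOR kinase and protein kinase A, so that they are transcribed together in rich medium and shut down together under stress.

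The files hold MAS5 signals, one linear value per probe set, and the log2 of the signal was taken for every comparison. Median signals over the 5402 genes tested lay between 598.8 and 628.1 on the 6 arrays. RPH1 read 305, 362 and 385 on wild-type arrays 1, 2 and 3, and 4.52, 8.18 and 8.99 on deletion arrays 1, 2 and 3. The background, taken from probe sets assigned to another yeast, was 8.59 to 12.7 by array. The 3 alpha-cell genes STE3, MF(ALPHA)1 and MF(ALPHA)2 had signals between 1812 and 6533, and the 4 a-cell genes STE2, BAR1, MFA1 and MFA2 between 17.2 and 86.3. All 127 members passed the filter on low signals. Mean signals of members ran from 702 for RPL15B to 8143 for RPL29. The highest signal of any gene on an array was 7815 to 9379, so most members lie at the top of the measured range.

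The arrays separated by replicate more than by genotype. The median member signal was 6975, 5896 and 5767 on wild-type arrays 1, 2 and 3, and 6517, 5829 and 5812 on the deletion arrays in that order. Both arrays of replicate 1 stand above the other 4, and wild type 1 stands highest. Wild type 1 read above wild types 2 and 3 in 114 of the 127 members, where 41.8% of tested genes did, and deletion 1 above deletions 2 and 3 in 100 members, where 46.3% did. The members' summed signal was 13.8% of the signal of all tested genes in wild type 1 and 12.0% to 12.2% on the 4 arrays of replicates 2 and 3, with deletion 1 in between. Wild type 1 was the array with the highest reading for 102 of the 127 members, against 22.5% of all tested genes, and wild type 2 was the highest for 0 of them. The SD of the median member level between arrays of the same genotype was 0.125 on the log2 scale.

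**Figure D1:**
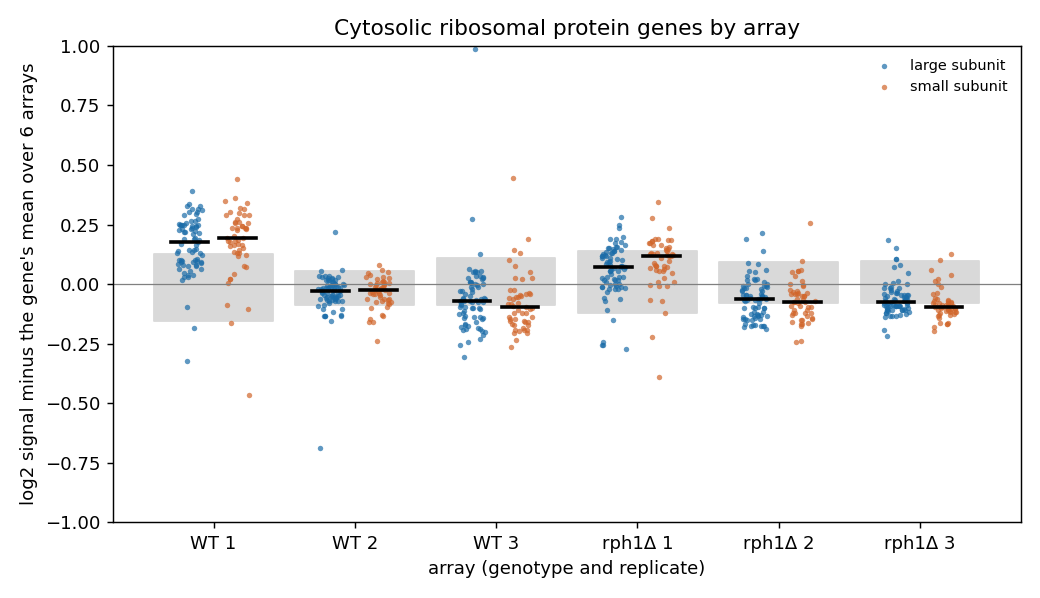
Each point is 1 ribosomal protein gene, plotted as its log2 signal minus its own mean over the 6 arrays (vertical axis) for each array (horizontal axis). Black bars are medians of the 75 large-subunit and 52 small-subunit genes, and grey bands span the middle 50% of all tested genes. Both subunits lie above 0 in replicate 1 of both genotypes and below 0 elsewhere, with medians of 0.18 and 0.19 in wild type 1.

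No ribosomal protein gene passed the test of genotype. With genotype as the only term, limma called 0 of 127 members at an adjusted p under 0.05, where 0.037% of all tested genes were called, and 0 members had an unadjusted p under 0.05, against 5.33% of tested genes (1% lower in the deletion and 4.33% higher). The median log2 difference, deletion minus wild type, was -0.041 for the members and 0.0012 for all tested genes, and 111 members had a difference below 0, where 49.6% of tested genes did. The SD of 0.125 between arrays of one genotype includes the level of replicate 1, which was higher in both genotypes, and the medians within the pairs numbered 1, 2 and 3 were -0.093, -0.030 and -0.00065. After quantile normalization the median was -0.0057 with 71 members below 0, where 54% of tested genes were. That scaling gives every array the same distribution of signals, and 57% of the 200 tested genes with the highest mean signal are members. It can therefore take out a shift that the members share, and cannot tell whether they stand apart. After median centring the median was -0.077 with 122 members below 0, where 63.2% of tested genes were. As deposited, the median turned in direction, to 0.030, when wild type 1 was left out. That fit keeps deletion 1, so replicate 1, higher in both genotypes, stands in the deletion group alone. Without deletion 1 the median was -0.096, and within replicates 2 and 3 it was -0.018. In 25 members the deletion read lower within all 3 pairs of arrays with 1 number, against 14.7% of tested genes, and in 1, RPL15B, it read higher within all 3, against 19.9%. The 95% interval of the log2 difference lay within 0.5 of 0 in 119 members. The other 8 were RPL41A, RPL7A, RPL28, RPS2, RPS14B, RPS31, RPP2A and RPS19A, named because they make up this count. Their spread between arrays in this fit, which includes the level of replicate 1, was too wide for that bound. With replicate 1 as a term, the SE of RPS14B was 0.068 in place of 0.22, and that of RPL41A 0.40 in place of 0.42.

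Other bright genes gave values close to these. Of the 200 tested genes with the highest mean signal, a set looked at after the values were seen, 114 are members and 86 are not. The median log2 difference was -0.043 in the former and -0.045 in the latter, and 103 and 71 of them lay below 0. Whether brightness by itself has a part in the members' difference was not tested.

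Among members with the smallest unadjusted p, RPL8A, encoding a large-subunit protein, read 6899, 6767 and 6829 on wild-type arrays 1, 2 and 3 and 5954, 6682 and 6520 on deletion arrays 1, 2 and 3. It was the only member whose groups did not overlap, every deletion array lying below every wild-type array, as in 3.04% of tested genes. Its log2 difference of -0.10 (SE 0.08) did not pass (limma adjusted p = 1.00). It was read on a probe set whose suffix marks possible cross-hybridisation, and its other probe set gave -0.024. RPL15B is the single member that read higher in the deletion in each pair. Wild-type arrays 1, 2 and 3 gave 657, 681 and 706, and deletion arrays 703, 744 and 725, so the groups overlap by 1 array on each side (log2 difference 0.09, SE 0.07, limma adjusted p = 1.00). RPL40B, encoding ubiquitin fused to a large-subunit protein, gave 8182, 6568 and 6331 on wild-type arrays against 6620, 6447 and 6057 on deletion arrays, in replicate order. The wild type 1 array stands apart from the other 5 there (log2 difference -0.13, SE 0.12). The other 7 of the 10 members with the smallest p were RPL21B (-0.09, SE 0.09), RPL31A (-0.09, SE 0.10), RPL30 (-0.09, SE 0.11), RPL23B (-0.10, SE 0.11), RPL8B (-0.10, SE 0.12), RPL29 (0.09, SE 0.10) and RPP2A, described with the stalk. All had a limma adjusted p of 1.00.

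The ribosomal stalk is the flexible arm of the large subunit that recruits elongation factors, with RPP0 as its base and the acidic proteins of RPP1 and RPP2 genes bound to it. RPP2A had the log2 difference farthest below 0 of all members, at -0.20 (SE 0.17, limma adjusted p = 1.00). Wild-type arrays 1, 2 and 3 gave 6313, 5851 and 4251, and deletion arrays 5256, 4544 and 4323. Wild type 3 read below all of the deletion arrays. Within the pairs numbered 1, 2 and 3 the log2 differences of RPP2A were -0.26, -0.36 and 0.024. With the replicate number as a block its SE was 0.09, and it did not pass (limma adjusted p = 0.466). RPP0 averaged 5682 ± 820 over wild type (SD, n = 3) and 5285 ± 515 over the deletion (SD, n = 3), and its log2 difference was -0.10 (SE 0.13). RPP1A differed by -0.09 (SE 0.11), RPP1B by -0.08 (SE 0.13) and RPP2B by -0.06 (SE 0.13). Each of the 5 had a difference below 0, and none of them passed (limma adjusted p = 1.00). Without wild type 1, RPP0 (0.0086), RPP1A (0.011), RPP1B (0.018) and RPP2B (0.048) lay above 0, and RPP2A was at -0.088. In that fit replicate 1 is left in the deletion group alone. Within replicates 2 and 3 all 5 lay below 0. They were -0.067 for RPP0, -0.020 for RPP1A, -0.072 for RPP1B, -0.17 for RPP2A and -0.030 for RPP2B.

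**Figure D2:**
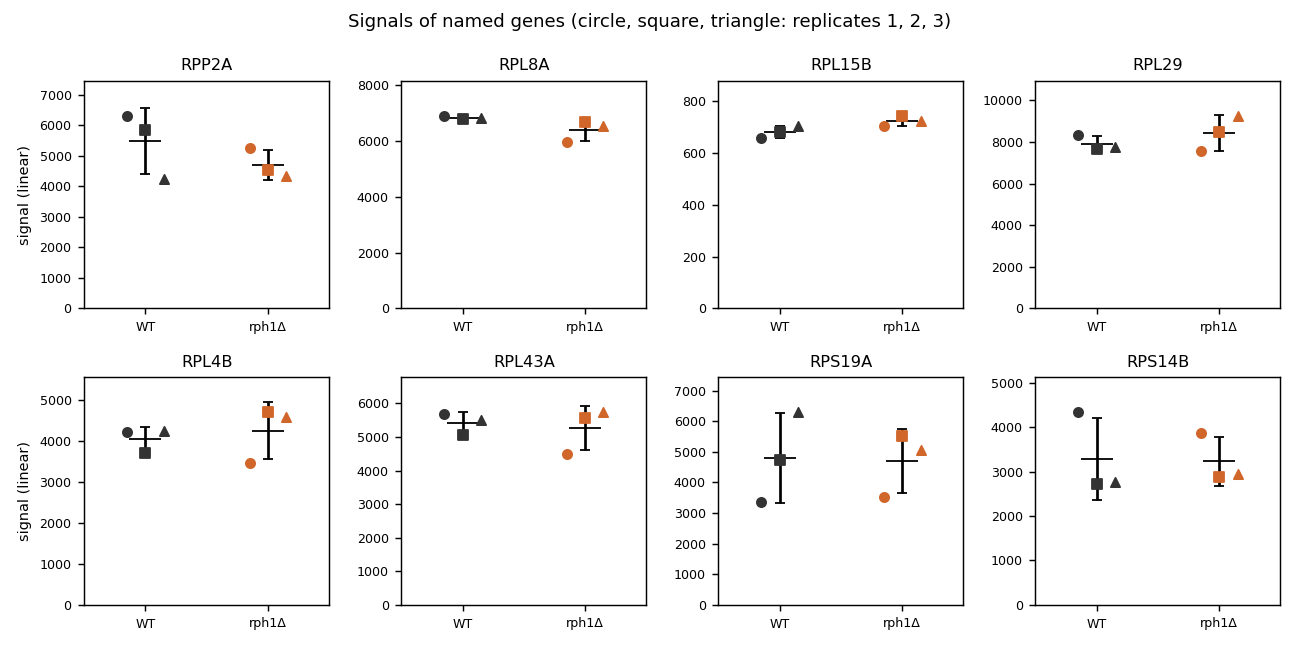
Linear signals of 8 named genes on the 6 arrays, wild type on the left and the deletion on the right of each panel, each panel starting at 0. Circles, squares and triangles are replicates 1, 2 and 3, and bars are the mean and SD of 3 arrays. The genotypes overlap in every panel but that of RPL8A, and in RPS19A and RPS14B the replicate 1 arrays lie apart from the rest in both genotypes.

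The large and the small subunit gave nearly the same median differences. The median log2 difference was -0.040 for the 75 large-subunit genes and -0.042 for the 52 small-subunit genes, with quartiles of -0.073 and -0.019 in the former and of -0.069 and -0.014 in the latter. In the large subunit 66 genes lay below 0 and in the small subunit 45. Medians were -0.097 and -0.085 in the replicate 1 pair, and -0.018 and -0.019 within replicates 2 and 3. The counts lower in the replicate 1 pair were less alike. They were 72 of 75 (96%) in the large subunit and 43 of 52 (82.7%) in the small, against 46.3% of tested genes. Without wild type 1 the medians were 0.027 and 0.039, both turned in direction, with replicate 1 left in the deletion group alone. Without deletion 1 they were -0.090 and -0.11.

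A and B copies were compared by the genotype difference of each, since levels of different probe sets cannot be set against each other. The 54 A copies had a median log2 difference of -0.042, the 55 B copies of -0.033, and the 18 members with neither letter of -0.064. In 50 pairs both copies were measured, 39 of them on unmarked probe sets. Both copies lay below 0 in 39 pairs, and the difference of the A copy lay below that of B in 28 pairs and above it in 22. The absolute gap between these differences had a median of 0.035, and in 44 pairs it was under 0.1. The exact permutation test over arrays (2-sided) was run on the log2 ratio of A to B in each of the 50 pairs, and it cannot go below p = 0.1 with 3 arrays against 3.

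In 2 pairs the ratio did not overlap between genotypes, which is 4% of the pairs. Of tested genes 10.6% did not overlap in either direction, but that share is for signals of single genes and not for ratios. Within replicates 2 and 3 alone, 2 arrays against 2, the ratio did not overlap in 11 pairs. There the signals of 40.9% of tested genes did not overlap. No such share was taken for ratios of other genes. In RPL37A and RPL37B every deletion array had a lower ratio than every wild-type array, with log2 differences of -0.10 (SE 0.14) for RPL37A and 0.01 (SE 0.12) for RPL37B. The log2 ratio of this zinc-binding large-subunit protein pair averaged 0.041 ± 0.053 over wild type and -0.077 ± 0.045 over the deletion (SD, n = 3 per genotype, exact p = 0.1, the lowest this design allows). RPL2A and RPL2B encode a protein near the peptidyl transferase centre. Their log2 ratio averaged 0.018 ± 0.045 over wild type and -0.062 ± 0.048 over the deletion (SD, n = 3 per genotype, exact p = 0.1). The other pairs among the 6 with the widest gaps overlapped between genotypes. RPL15A and RPL15B differed by -0.06 and 0.09, a gap of -0.15 (SE 0.18, exact permutation p = 0.5). RPP2A and RPP2B had a gap of -0.14 (SE 0.09, exact permutation p = 0.3). RPL23A and RPL23B differed by 0.04 and -0.10, a gap of 0.13 (SE 0.12, exact permutation p = 0.3). RPL4A and RPL4B, whose protein lines part of the exit tunnel, had a gap of -0.13 (SE 0.30, exact permutation p = 0.8), and RPL4A was read on a probe set marked as cross-hybridising. RPS14A and RPS14B had a gap of -0.11 (SE 0.11, exact permutation p = 0.4).

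**Figure D3:**
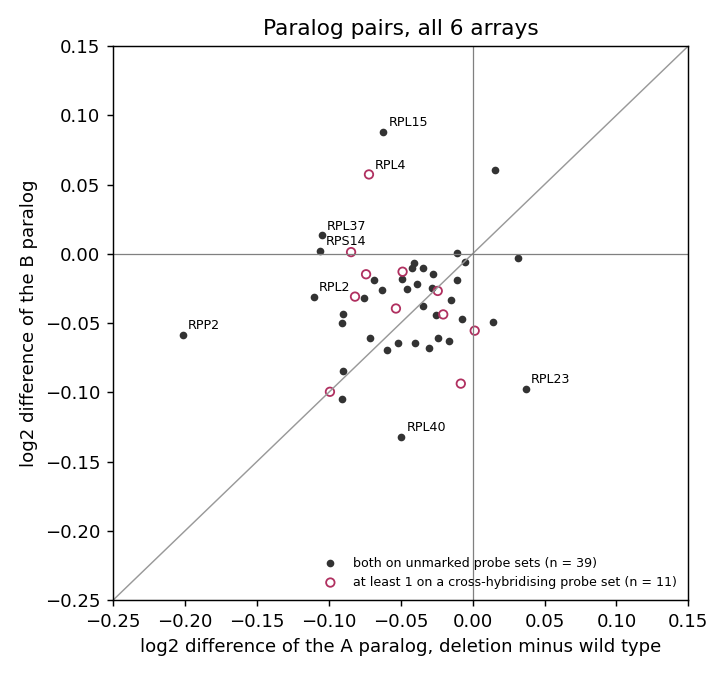
Each point is 1 of the 50 pairs, with the log2 difference (deletion minus wild type, all 6 arrays) of the A copy on the horizontal axis and of the B copy on the vertical axis. The diagonal marks equal change, and open circles are the 11 pairs with at least 1 cross-hybridising probe set. Most points lie in the lower left, where 39 pairs have both copies below 0, and the lowest copy, RPP2A, is at -0.20.

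The members' difference was farther from 0 in the replicate 1 pair than within replicates 2 and 3. In the former 115 of 127 members read lower in the deletion, against 46.3% of tested genes, with a median log2 difference of -0.093. The members farthest below 0 there were RPL43A (-0.34), RPL40B (-0.31) and RPL4B (-0.29), and those farthest above were RPS10B (0.11), RPL15B (0.098) and RPS19A (0.076). Within replicates 2 and 3 the count was 87, against 50.9% of tested genes, and the median was -0.018. Taken singly, the replicate 2 pair gave 79 members, against 47.3% of tested genes, and a median of -0.030, and the replicate 3 pair gave 64, against 50%, and a median of -0.00065. Both copies read lower in the replicate 1 pair in 43 of the 50 paralog pairs, while within replicates 2 and 3 both read lower in 19 and they lay on opposite sides of 0 in 27. The 18 members without an A or B letter had a median of -0.11 in replicate 1 (17 lower), of -0.15 in the replicate 2 pair (15 lower) and of 0.069 in the replicate 3 pair (5 lower). For these genes the pairs numbered 2 and 3 lay on opposite sides of 0, and which of these arrays belong together rests on the replicate numbers alone.

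The difference between the replicate 1 pair and replicates 2 and 3 was tested as an interaction of genotype with replicate 1. It lay below 0 in 106 of 127 members, against 46.9% of tested genes, with a median of -0.080. By subunit, these were 67 of 75 large-subunit and 39 of 52 small-subunit genes. No member passed (limma, 0 of 127, and 0% of tested genes), and 3 members had an unadjusted p under 0.05, against 6.63% of tested genes, all 3 below 0, against 2.98%. RPL4B read 4217, 3711 and 4230 on wild-type arrays 1, 2 and 3 and 3457, 4702 and 4589 on the deletion arrays. Its deletion array of replicate 1 was the lowest of all and those of replicates 2 and 3 the highest (interaction -0.52, SE 0.15, limma adjusted p = 0.677). RPL43A, encoding a zinc-binding large-subunit protein, gave 5698, 5068 and 5511 on wild-type arrays against 4505, 5556 and 5739 on deletion arrays, in the same order (interaction -0.43, SE 0.12, limma adjusted p = 0.677). RPL29, which encodes a small basic protein of the large subunit, gave 8312, 7657 and 7747 on wild-type arrays against 7559, 8454 and 9257 on deletion arrays (interaction -0.34, SE 0.13, limma adjusted p = 0.751). In all 3 genes the deletion was lower in replicate 1 and higher in both other replicates.

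Within replicates 2 and 3 alone limma called 0 members, where 0.037% of tested genes were called, and 2, RPL29 and RPL4B, had an unadjusted p under 0.05, against 10.6% of tested genes. Their log2 differences there were 0.20 and 0.23 (limma adjusted p = 0.453 and 0.462). RPS1B, of the small subunit, differed by 0.12 there. On the other side were RPP2A at -0.17, RPS10B at -0.12 and RPL31A at -0.10. With the replicate number as a block, and with replicate 1 as a term, 0 members were called (0.111% and 0.629% of tested genes), and 0 had an unadjusted p under 0.05 in either fit, against 13% and 14.6% of tested genes (3.57% and 4.11% lower).

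**Figure D4:**
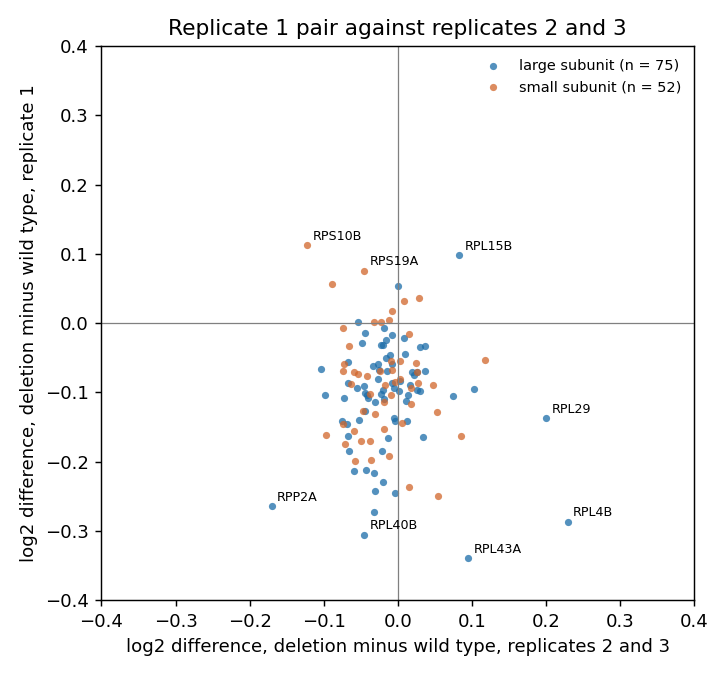
Each point is 1 ribosomal protein gene, with its log2 difference (deletion minus wild type) within replicates 2 and 3 on the horizontal axis and in the replicate 1 pair on the vertical axis. Most points lie below 0 on the vertical axis (115 of 127) and spread around 0 on the horizontal one, with RPL4B, RPL43A and RPL29 at the lower right.

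Replicate 1 differed from replicates 2 and 3 in the members' level whatever the genotype. The labels give both samples of replicate 1 another form of sample code, and no source used here says what it stands for. In a fit with genotype and replicate 1 as terms, 68 of 127 members were called higher in replicate 1, where 18.4% of tested genes were, and 2 were called lower, where 18.5% were. The median log2 difference was 0.21 for the members and 0.0037 for all tested genes, and 112 members lay above 0, against 50.6%. In 95 members both arrays of replicate 1 read above all of the other 4, against 28.1% of tested genes. Of the large subunit 34 of 75 genes were called higher, of the small subunit 34 of 52, and of the 18 members without an A or B letter 14.

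These calls depended on the scaling and on single arrays. After quantile normalization, which gives every array the same distribution of signals, the median was 0.025, with 8 members called higher (6.30%) and 6 lower, where 18.6% and 17.5% of tested genes were called. The members' share of higher calls was then below that of all tested genes. This scaling can take out a level that the members share, since they are 57% of the 200 brightest genes. After median centring the median was 0.24, with 71 called higher and 2 lower, where 20.9% and 17% of tested genes were. Without wild type 1 there were 2 members called higher, where 5.87% of tested genes were, and without deletion 1 there were 6, where 4.05% were. Each of these fits leaves a single array in replicate 1, the medians were 0.18 and 0.25, and neither count stands out from all tested genes. Without deletion 2 there were 19 called higher, against 8.96%, and without deletion 3 there were 28, against 10.9%. Without wild type 2 and without wild type 3 there were 61 each, against 17.2% in both fits. Among the 200 brightest genes, 57.9% of the 114 members and 37.2% of the 86 other genes were called higher, with medians of 0.22 and 0.15. The part of brightness in this difference was not tested.

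**Figure D5:**
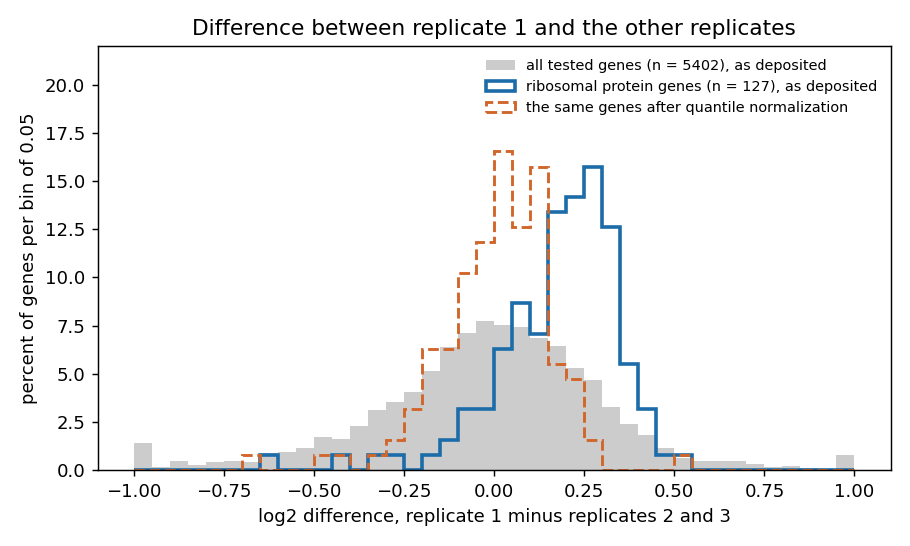
Percent of genes (vertical axis) by log2 difference between replicate 1 and replicates 2 and 3 (horizontal axis, bins of 0.05, values beyond the axis gathered in the end bins). The 127 members as deposited (solid line) centre on 0.21, all 5402 tested genes (grey) on 0.0037, and the members after quantile normalization (dashed line) on 0.025.

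The 6 members farthest from 0 in this comparison showed both directions. RPS14B, a copy of a gene for a protein of the small-subunit platform, read 4338 in wild type 1 and 3873 in deletion 1, against 2711 to 2938 on the other 4 arrays (0.54, SE 0.07, limma adjusted p = 0.00529). It kept this after quantile normalization (0.50, limma adjusted p = 0.00535). RPS2, a small-subunit gene linked to translational accuracy, differed by 0.48 (SE 0.09, limma adjusted p = 0.0105), and RPL28, known for cycloheximide resistance mutations, by 0.44 (SE 0.09, limma adjusted p = 0.0140). RPL32 differed by 0.44 (SE 0.09, limma adjusted p = 0.0179). After quantile normalization RPS2 stood at 0.29 (limma adjusted p = 0.0422), and RPL28 and RPL32 no longer passed (0.22 and 0.23, limma adjusted p = 0.0703 and 0.0711).

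Against the majority, RPS19A, whose protein is needed to mature the small-subunit RNA, was lower in replicate 1. It read 3351 and 3531 on the replicate 1 arrays of wild type and deletion, and 4732, 6297, 5525 and 5061 on wild type 2 and 3 and deletion 2 and 3 (-0.64, SE 0.12, limma adjusted p = 0.0117). Its copy RPS19B was higher there, at 0.22 (SE 0.05, limma adjusted p = 0.0253), so the log2 ratio of A to B differed by -0.86. RPS9A, the other member called lower, differed by -0.29 (SE 0.06, limma adjusted p = 0.0151), and RPS9B by 0.17 (SE 0.06, limma adjusted p = 0.0628). RPS19A and RPS9A also passed as lower after quantile normalization (-0.69 and -0.35, limma adjusted p = 0.0204 and 0.020). RPS19A and RPS9A had genotype differences of -0.01 (SE 0.27) and -0.07 (SE 0.13). In 38 of the 50 pairs both copies were higher in replicate 1, and in 12 the copies lay on opposite sides of 0.

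RPL41A, which encodes a peptide far shorter than the other members, was the least even. It read 890, 691 and 2211 on wild-type arrays 1, 2 and 3 and 924, 1294 and 1180 on deletion arrays 1, 2 and 3, from a probe set marked as cross-hybridising. Its log2 difference was 0.02 with an SE of 0.42, the largest SE among the members, and its replicate 1 difference was -0.45 (SE 0.42, limma adjusted p = 0.438). The median SE of the members was 0.11.

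Probe sets of the same gene could be compared in 20 members. The log2 difference by genotype differed between them by a median of 0.036 and by 0.19 at most, in RPS11B, and had the same sign in 17. The difference between replicate 1 and the others varied more, by a median of 0.13 and by 0.64 at most, again in RPS11B, where one probe set gave 0.20 and the other -0.44. In all, 21 members were read on probe sets marked as cross-hybridising, 17 with the suffix _s_at (probes shared by similar transcripts) and 4 with _x_at (some probes unspecific), so their values are uncertain between copies.

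Genes that act on or beside the ribosomal proteins were read from lists. Of 30 regulators of ribosomal protein transcription and growth signalling, 28 were measured, 0 were called, and 3 had an unadjusted p under 0.05, against 5.33% of tested genes. TPK2, a catalytic subunit of protein kinase A, gave 874, 915 and 720 on wild-type arrays 1, 2 and 3 and 1173, 1096 and 1138 on the deletion arrays, all above wild type (0.45, SE 0.11, limma adjusted p = 0.434). BCY1, the regulatory subunit of the same kinase, averaged 1215 ± 24 over wild type and 1402 ± 68 over the deletion (SD, n = 3 per genotype), again with no overlap (0.21, SE 0.07, limma adjusted p = 0.718). CKB1, a regulatory subunit of casein kinase 2, lay lower on every deletion array (-0.20, SE 0.08, limma adjusted p = 0.843). Every deletion array lay above every wild-type array in 7.55% of tested genes and below in 3.04%. The list's median was -0.018.

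In the other 4 lists no gene was called and none had an unadjusted p under 0.05, against 0.037% and 5.33% of tested genes. The 10 ribosome-associated factors, which include the nascent chain complex and the ribosome-bound Hsp70 system, had a median of -0.046 with 8 below 0, as with SSB2 (-0.11, SE 0.10), ZUO1 (-0.07, SE 0.09) and EGD1 (-0.12, SE 0.16). Of 37 translation factors 34 were measured, with a median of -0.030 and 26 below 0, among them SUP45 (-0.11, SE 0.10), HCR1 (-0.07, SE 0.07) and GCD1 (-0.04, SE 0.06). Of 71 ribosome biogenesis genes 70 were measured, with a median of -0.011 and 40 below 0, among them NUG1 (-0.09, SE 0.07), RRP9 (-0.16, SE 0.13) and BMS1 (0.11, SE 0.09). The 8 dedicated chaperones that escort single ribosomal proteins had a median of -0.014 and 5 below 0, with TSR4 at 0.07 (SE 0.09), SYO1 at 0.09 (SE 0.12) and SQT1 at 0.04 (SE 0.07). In replicate 1, 5 of the 10 ribosome-associated factors, 7 of the 34 translation factors and 14 of the 70 biogenesis genes were called higher, and 0, 1 and 14 were called lower, where 18.4% and 18.5% of tested genes were. Of the 8 chaperones 2 were called higher and 0 lower, and of the 28 regulators 4 and 5. The biogenesis genes had a median there of 0.018.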

How the data were processed

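The deposited values are linear signal intensities, one for each probe set, and the authors made them with MAS5, per the submitters' processing notes. No source used here gives its version or target. Labelled cRNA came from 10 µg of total RNA, per the labels' protocols. The trimmed mean (2% at each end) was 500.2 on every array, so signals were used as deposited. Of 10928 probe sets, 5498 matched a S. cerevisiae gene of the RefSeq table (assembly R64) by gene identifier. The 1746 other annotated probe sets, without such a match, were taken as those of Schizosaccharomyces pombe, also on this array. The probe set with the highest mean was kept per gene. Genes were kept for testing where the mean log2 signal passed 3.06, the 95th percentile of the S. pombe means (5402 genes; 47 left out).

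Log2 signals were fitted with limma 3.58.1 in R 4.3.3 (lmFit, eBayes, 2-sided, Benjamini-Hochberg over all tested genes, threshold 0.05), a method tested on simulated data. SE comes from that fit. Replicate 1 against 2 and 3, and its interaction with genotype, were fitted with those terms added. In the interaction fit the spread comes from replicates 2 and 3 alone. Single values use exact permutation tests. The number of arrays limits precision. The design text calls the samples biological, and where cultures were not separate, p-values measure only the spread between these samples. Figures used matplotlib 3.10.9 in Python 3.11.15.

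Deviations from the group means correlated between same-numbered arrays at 0.768, 0.454 and 0.415, each over 0.1. Same-numbered arrays were treated as pairs in the differences given by pair and in the fit with the replicate number as a block. For numbers 2 and 3 this pairing rests on the replicate numbers of the labels alone. The main genotype fit, which gave the SE and interval of each genotype difference, held genotype alone and no pairing. Wild type 3 correlated more with deletion 2 (0.535) and wild type 2 with deletion 3 (0.471), so the correlations set replicate 1 apart and do not tell numbers 2 and 3 from each other. Alternatives were other scalings, filters, offsets, variance models, weights, the block, the batch term and leaving out arrays. The members, lists and tests were chosen with earlier results of these data known. Named genes are RPH1, the 10 members with the smallest p, the 6 pairs with the largest gap, the 3 extremes each way of the replicate 1 pair and of replicates 2 and 3, the brightest and dimmest member, the stalk genes, the 6 largest replicate 1 differences and 3 genes per list. RPL2, RPL37, RPS9, RPS19B and RPS11B were named after their values were seen, as were the members in counts of 8 or fewer. The rule also takes in every member called for replicate 1, of which those outside these groups are given as counts.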

Additional observations from a re-analysis of the deposited data

How the results depend on the processing

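limma called 0 of the 127 members for genotype under every alternative that gave a test, with the lowest adjusted p, 0.092, under array weights, an estimate that stopped short of convergence. Over all tested genes, 2 calls became 1 after quantile normalization, 1 with 32 added to each signal, 1 with an intensity trend, 202 with array weights and 34 with replicate 1 as a term, and 1 to 2 when each array was left out. With the replicate number as a block, 6 genes were called and again 0 members, and this pairing changed no call on a member. The members' median lay between -0.096 and 0.030 when each array was left out, and only leaving out wild type 1 turned its direction. Both ends came from leaving out an array of replicate 1, which keeps the other replicate 1 array in a single genotype. The 70 members called for replicate 1, where 36.9% of tested genes were called, became 14 after quantile normalization, where 18.6% of tested genes were called higher and 17.5% lower. They became 2 to 65 when each array was left out, an alternative chosen after seeing the data. These counts take both directions. Members called higher were 2 to 61 in these fits, where 4.05% to 17.2% of tested genes were called higher. The lowest count came from a fit with a single array in replicate 1. A ratio without overlap between genotypes occurred in 11 of the 50 paralog pairs within replicates 2 and 3, where only 2 arrays stand against 2. There 40.9% of tested genes do not overlap, a share for single signals and not for ratios.

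None of the named members passed the genotype test, and several log2 differences changed sign. Some of these were close to 0, and others, as in RPS14A (-0.11), RPL37A (-0.10) and RPP0 (-0.10), were among those farther below 0. After quantile normalization RPL32 was 0.035, RPL41A -0.0057, RPS19A 0.014 and RPL43A 0.0082. After median centring RPL41A was -0.018, RPL37B -0.022 and RPS14B -0.034. With array weights RPS19A was 0.13 and RPL43A 0.11. Within replicates 2 and 3 RPL32 was 0.0087, RPL41A -0.00031 and RPL43A 0.095. With each array left out in turn, RPL15A ranged from -0.15 to 0.047, RPL23A from -0.021 to 0.085, RPL28 from -0.22 to 0.075, RPL32 from -0.15 to 0.15, RPL37A from -0.19 to 0.021, RPL37B from -0.062 to 0.11 and RPL41A from -0.32 to 0.52. RPL43A ranged from -0.12 to 0.059, RPL4A from -0.19 to 0.068, RPL4B from -0.023 to 0.20, RPP0 from -0.20 to 0.0086, RPP1A from -0.15 to 0.011, RPP1B from -0.17 to 0.018 and RPP2B from -0.16 to 0.048. RPS10B ranged from -0.099 to 0.017, RPS14A from -0.23 to 0.038, RPS14B from -0.14 to 0.22, RPS19A from -0.24 to 0.22 and RPS2 from -0.22 to 0.094. Leaving out either array of replicate 1 keeps the other in a single genotype, so these ranges include the level of replicate 1. The cause of each change was not tested. Signals near the top of the measured range, arrays without an independent scale and 3 arrays per genotype limit what can be told, and a lone array left in replicate 1 is assumed to vary like the others.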
